A study of Mus musculus with 9 samples.

Results

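Complement is a cascade of plasma proteins that marks surfaces for removal, and 9 of its genes were followed here in the kidney of Trex1-/- mice: C1qa, C1qb, C1qc, C2, C3, C4b, Cfb, Serping1 and C3ar1. They were chosen by name as components, a regulator and a receptor of the cascade, out of 54532 genes in the count tables, and all 9 passed the filter on low counts with 16646 genes in all. Kidney RNA came from 3 groups of mice on a C57BL/6J background, with 3 libraries each. They were purchased wild-type mice (WT), Trex1-/- mice bred from heterozygous parents and given the vehicle of the drug (Trex1-/- PBS), and Trex1-/- mice given SN-011. SN-011, an antagonist of the adaptor STING, and its vehicle were injected daily into the peritoneum for 2 weeks from 1 month of age. TREX1 is an exonuclease that degrades DNA in the cytosol, where the sensor cGAS otherwise signals through STING to interferon. WT mice are described neither as littermates of the Trex1-/- mice nor as injected, and their age at collection is not given in the sources used here beyond 4 to 8 weeks at purchase. Genotype, origin, injection and any difference in age cannot be told apart between WT and Trex1-/- PBS. The labels do not give sex.

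The classical pathway starts when C1q, a molecule built of A, B and C chains, binds antibody or another target, and its proteases then cut C4 and C2 into the enzyme that splits C3. The alternative pathway amplifies C3 splitting through factor B. C1 inhibitor, the product of Serping1, stops the classical proteases, and the C3a fragment released from C3 signals through the receptor C3AR1. The liver supplies most plasma complement, tissue macrophages are the usual source of C1q, and kidney tubular and stromal cells also make C3, C4 and factor B.

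The 3 C1q genes lie side by side on chromosome 4, and the promoters of 2 of them and of C3ar1 are shown because these genes were higher in Trex1-/- PBS than in WT. RefSeq windows of 300 bases, from 250 before to 50 after the start in GRCm38.p6, were found for 4 of the 9 members (C1qb, C1qc, C3 and C3ar1). Capitals mark AGGAAGT on either strand, a core bound by the macrophage factor PU.1 that was picked after the windows had been read.
C1qb promoter (chr4:136886151-136886450, minus strand): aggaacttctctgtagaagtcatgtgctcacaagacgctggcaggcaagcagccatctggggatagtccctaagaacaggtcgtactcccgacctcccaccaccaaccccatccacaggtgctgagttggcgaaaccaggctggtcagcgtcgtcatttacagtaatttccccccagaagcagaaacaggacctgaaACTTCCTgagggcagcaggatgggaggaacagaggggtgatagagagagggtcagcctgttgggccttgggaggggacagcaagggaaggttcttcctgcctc
C1qc promoter (chr4:136892865-136893164, minus strand): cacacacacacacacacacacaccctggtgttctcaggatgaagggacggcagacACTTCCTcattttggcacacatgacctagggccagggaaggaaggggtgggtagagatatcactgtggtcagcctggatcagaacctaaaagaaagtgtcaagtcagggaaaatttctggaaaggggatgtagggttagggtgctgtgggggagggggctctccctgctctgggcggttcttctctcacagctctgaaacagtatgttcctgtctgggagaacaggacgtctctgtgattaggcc
C3ar1 promoter (chr6:122856108-122856407, minus strand): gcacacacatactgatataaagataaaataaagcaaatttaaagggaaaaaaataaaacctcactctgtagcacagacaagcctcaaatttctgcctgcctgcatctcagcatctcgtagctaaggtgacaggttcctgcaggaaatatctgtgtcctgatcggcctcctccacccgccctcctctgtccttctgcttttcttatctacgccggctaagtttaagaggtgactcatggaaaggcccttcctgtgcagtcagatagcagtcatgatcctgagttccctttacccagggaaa
The motif was present once in the C1qb window and once in the C1qc window, and in 9.35% of all 32851 windows of this length. The interferon-type motif GAAANNGAAA, held by 3.44% of all windows, and the STAT-type motif TTCNNNGAA, held by 8.3%, were each searched on both strands and were not found in the 4 windows.

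The libraries held 16118813 to 21928965 counts. Trex1 itself was listed at 0 counts in 9 of 9 libraries, WT included, so the counts cannot check the genotype, which rests on the labels. The libraries also differed in sex-linked transcripts. The 3 Trex1-/- PBS libraries, WT replicate 3 and SN-011 replicate 2 carried Y-linked reads (summed to 153 to 188 CPM, counts scaled to a common library size), and the other 4 carried Xist reads (434 to 503 CPM). Each comparison was therefore fitted again with a term for Y-linked reads. That term rests on WT replicate 3 and SN-011 replicate 2 against the other libraries of their groups. It assumes the same shift in every group. No Trex1-/- PBS library carried Xist reads at such a level, so within Xist libraries only SN-011 and WT could be set side by side.

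Levels were compared between genes as FPKM, which divides CPM by the kilobases of exon that no other gene of the annotation shares on the same strand. In WT, Serping1 stood highest at 43.4 ± 8.26 FPKM (SD, n = 3, as for all means here). C1qa with 25.7 ± 3.54 FPKM and C1qb with 24.7 ± 3.92 FPKM followed and overlapped each other. Cfb had 16.7 ± 4.08 FPKM and overlapped C3, which had 13.1 ± 2.37 FPKM. The place of Cfb rests on its 579 unshared of 2825 exonic bases, and read pairs that reach into them from shared bases may also have been counted, so its FPKM may be too high. C2 with 9.34 ± 0.368 FPKM overlapped C1qc with 8.59 ± 2.36 FPKM, and C4b with 2.87 ± 1.81 FPKM and C3ar1 with 0.505 ± 0.0651 FPKM stood below the rest. C2 rests on 2216 unshared of 3872 exonic bases, so the same caution holds for its place. Divided by all exonic bases, C2 had 5.34 FPKM and Cfb 3.43 FPKM in WT, both below the mean of C1qc. In Trex1-/- PBS, C4b had 14.2 ± 2.22 FPKM and stood above C2, which had 10.8 ± 0.571 FPKM, without overlap. In Trex1-/- SN-011, C1qa (36.5 ± 7.24 FPKM), C1qb (35.7 ± 8.50 FPKM) and Serping1 (34.2 ± 5.36 FPKM) came first and overlapped.

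Kidneys of Trex1-/- PBS mice carried more RNA of C1q, C4b and C3ar1 than WT kidneys. By edgeR's quasi-likelihood test with Benjamini-Hochberg adjustment over 16646 genes, 5 of the 9 members rose at an adjusted p under 0.05 and 0 fell, against 1.44% of all genes that rose. With the Y-linked term 2 of 9 rose, C4b and C3ar1, against 0.907% of all genes. The log2 fold change was above 0 for 9 of 9 members, with a median of 0.79 against 0.0028 over all genes, and with the Y-linked term it was above 0 for 8 of 9 with a median of 0.54. For 8 of 9 members the Trex1-/- PBS libraries all stood above the WT libraries, against 13.1% of all genes. These are counts and medians over a list chosen by name with earlier results known.

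**Figure D1:**
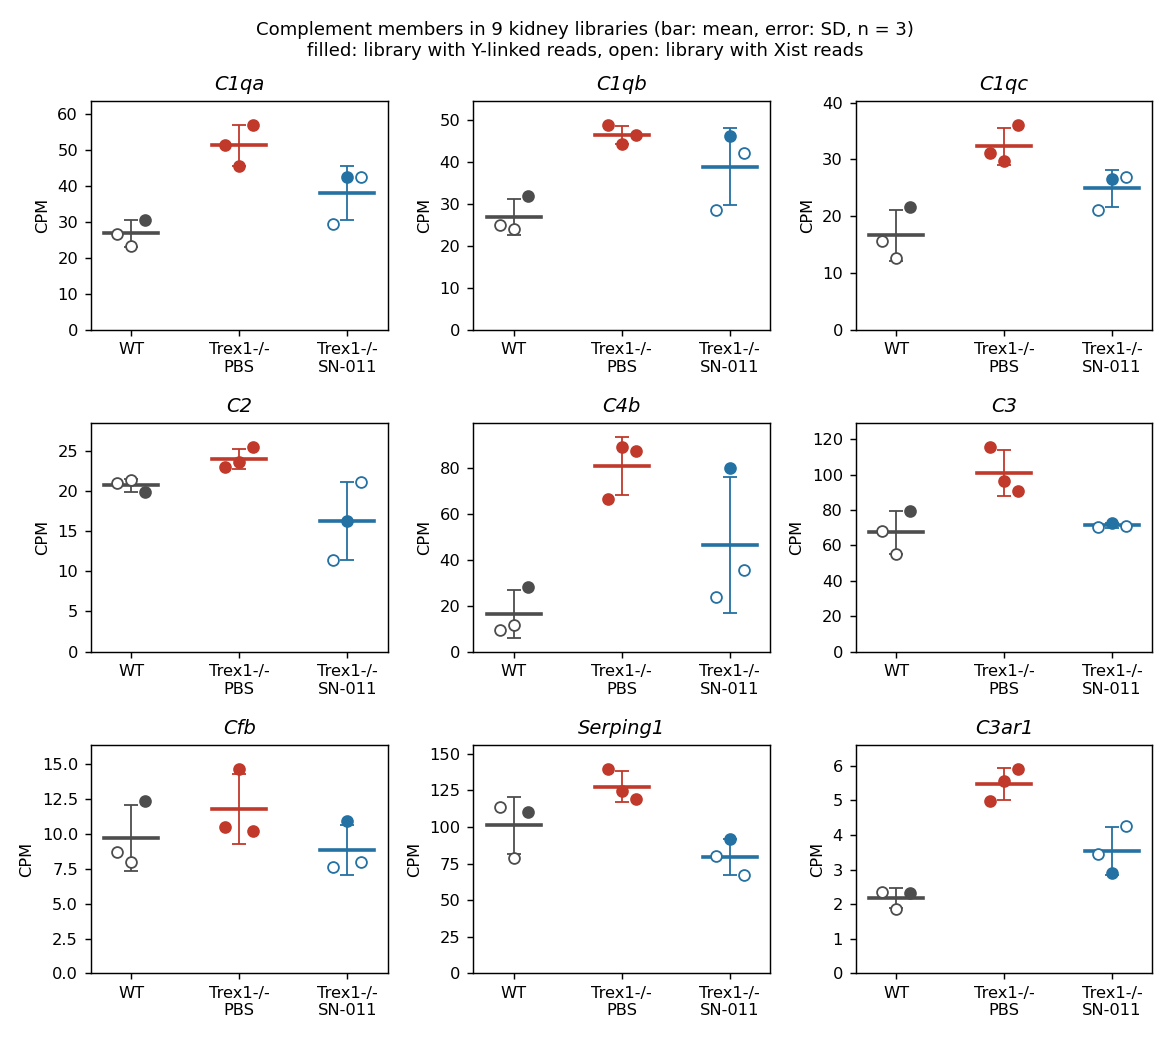
CPM of each member (vertical axis, linear, from 0) in the 3 libraries of WT, Trex1-/- PBS and Trex1-/- SN-011; horizontal bars are means, error bars SD (n = 3), filled points libraries with Y-linked reads and open points libraries with Xist reads. The Trex1-/- PBS points lie above all WT points for each gene except Cfb, and C4b has its highest WT and highest SN-011 value in the library with Y-linked reads.

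C1qa (ENSMUSG00000036887; chromosome 4, 136895917 to 136898803, minus strand) encodes the A chain of C1q. Its values were 26.6, 23.1 and 30.5 CPM in WT replicates 1, 2 and 3, then 51.3, 45.6 and 56.8 CPM in Trex1-/- PBS and 29.3, 42.4 and 42.3 CPM in Trex1-/- SN-011. All Trex1-/- PBS libraries were above all WT and all SN-011 libraries, and SN-011 replicate 1 fell within the WT range. The difference from WT to Trex1-/- PBS was a log2 fold change of 0.94 with a standard error (SE) of 0.159 (edgeR adjusted p 0.0133), or 1.92-fold. The Y-linked term took it to 0.77 (adjusted p 0.0677).

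C1qb (ENSMUSG00000036905; chromosome 4, 136880129 to 136886187) encodes the B chain. It had 24.8, 24.0 and 31.8 CPM in WT, 48.7, 44.3 and 46.2 CPM in Trex1-/- PBS, and 28.4, 46.0 and 42.0 CPM in Trex1-/- SN-011. SN-011 replicate 2 reached the Trex1-/- PBS range and SN-011 replicate 1 stayed in the WT range. The rise over WT was 0.79 (SE 0.171, edgeR adjusted p 0.0483) and was 0.54 with the Y-linked term (adjusted p 0.177).

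C1qc (ENSMUSG00000036896; chromosome 4, 136889804 to 136893065) encodes the C chain. It had 15.6, 12.6 and 21.6 CPM in WT, 31.2, 29.7 and 36.0 CPM in Trex1-/- PBS, and 21.1, 26.6 and 26.9 CPM in Trex1-/- SN-011. WT replicate 3, the WT library with Y-linked reads, was the highest of WT for all 3 chains. The rise of C1qc over WT was 0.96 (SE 0.183, edgeR adjusted p 0.0253) and was 0.73 with the Y-linked term (adjusted p 0.0899).

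The proportions of the chains differed little between groups. They overlapped for every pair of groups, except that the C1qa share was higher in all Trex1-/- PBS libraries (43.9 to 47.2%) than in all SN-011 libraries (42.1 to 43.6%), which was not tested. Per length, C1qa made up 43.7 ± 1.61% of the C1q transcripts in WT, 45.3 ± 1.71% in Trex1-/- PBS and 43.0 ± 0.802% in Trex1-/- SN-011. C1qb made up 41.9 ± 1.46%, 39.3 ± 2.28% and 41.7 ± 1.85% of them in the same order. C1qc made up 14.4 ± 1.58%, 15.4 ± 0.721% and 15.3 ± 1.30%. Over the 9 libraries, which share their groups, the log2 CPM of the 3 chain pairs had Pearson's r of 0.94 to 0.97, and of 0.78 to 0.90 once each group's mean was taken out. Over all 36 pairs of members r ran from 0.23 to 0.97 with a median of 0.63.

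C1q was also read against macrophage markers, because bulk RNA cannot tell apart more cells of a type and more RNA per cell. The summed CPM of 11 macrophage markers (Adgre1, Cd68, Lyz2, Mrc1, Cd163, Cx3cr1, Mertk, Fcgr1, Fcgr3, Aif1 and Ms4a7) ran from 109 to 124 in WT, 158 to 175 in Trex1-/- PBS and 104 to 151 in Trex1-/- SN-011, with no marker at 0 in all libraries. Of the 11 markers, Fcgr1 rose in Trex1-/- PBS over WT (1.69 on the log2 scale, edgeR adjusted p 0.00721), and all 11 fold changes were above 0 with a median of 0.76, which the Y-linked term took to 10 of 11 and a median of 0.51. The C1q sum divided by the marker sum was 0.584, 0.549 and 0.676 in WT, 0.797, 0.756 and 0.796 in Trex1-/- PBS, and 0.761, 0.761 and 0.792 in Trex1-/- SN-011. Both Trex1-/- groups stood above WT in this ratio and overlapped each other. No Y-linked term was fitted to the ratio. The highest WT value was that of replicate 3, which carried Y-linked reads as all Trex1-/- PBS libraries did. The part of sex-linked reads in the ratio was not tested. Without Lyz2 among the markers, SN-011 replicate 1 (0.984) overlapped WT, whose replicate 3 was also at 0.984, and the log2 difference of SN-011 from WT was 0.43 (exact permutation p 0.2, adjusted 0.267). The log2 difference of the ratio from WT was 0.38 in Trex1-/- PBS (exact permutation p 0.1, two-sided, the smallest that 3 against 3 can give; 0.171 adjusted over 12 tests) and 0.36 in SN-011 (exact permutation p 0.1, adjusted 0.171). Between SN-011 and PBS it was -0.022 (exact permutation p 0.8, adjusted 0.8). Whether cell number or RNA per cell moved was not tested.

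**Figure D2:**
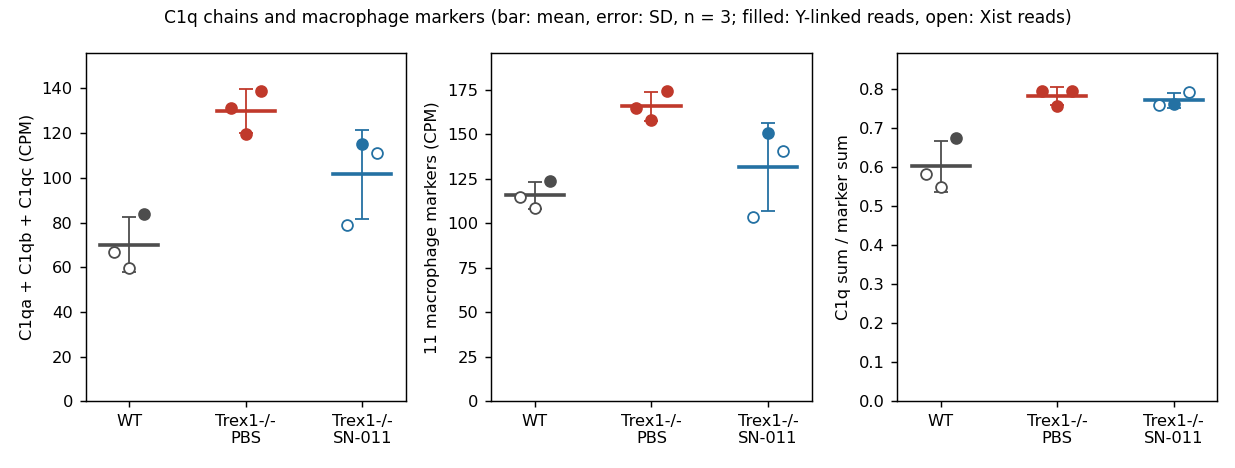
Summed CPM of C1qa, C1qb and C1qc (left), summed CPM of 11 macrophage markers (middle) and their ratio (right) by group; axes are linear from 0, bars are means with SD (n = 3), filled points carry Y-linked reads and open points Xist reads. The sums of SN-011 replicate 1 lie in or below the WT range while its ratio, 0.761, lies with the Trex1-/- PBS libraries.

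C4b (ENSMUSG00000073418; chromosome 17, 34728380 to 34743882, minus strand) encodes complement C4, which is cut by the C1 proteases, and it had the largest change of the 9 members. It had 9.38, 11.5 and 28.2 CPM in WT, 66.4, 89.2 and 87.4 CPM in Trex1-/- PBS, and 24.0, 80.0 and 35.7 CPM in Trex1-/- SN-011. Trex1-/- PBS was above WT in every library, and in WT and SN-011 the highest value belonged to the library with Y-linked reads. The rise in Trex1-/- PBS over WT was 2.32 in log2 units with an SE of 0.479 (edgeR adjusted p 0.0391), or 4.99-fold. With the Y-linked term it was 1.53 (SE 0.199, adjusted p 0.00382), or 2.88-fold.

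C4b was the 1 member called for Y-linked reads. Within the same fit it was higher in libraries with Y-linked reads by a log2 difference of 1.43 with an SE of 0.164 (edgeR adjusted p 9.34e-04), while 3.65% of all genes were called for this term and 1 of 9 members was. Cfb at 0.52 (95% interval 0.16 to 0.89, edgeR adjusted p 0.117), C1qb at 0.38 (95% interval 0.089 to 0.68, adjusted p 0.157) and C1qc at 0.38 (95% interval 0.047 to 0.71, adjusted p 0.215) missed the threshold with intervals above 0, and C1qb was called for the term in 2 of 15 alternatives. Among libraries with Xist reads, C4b averaged 10.4 CPM in WT and 29.8 CPM in SN-011 (n = 2 each). Among those with Y-linked reads, the single WT library had 28.2 CPM, the single SN-011 library 80.0 CPM and the 3 Trex1-/- PBS libraries a mean of 81.0 CPM. That SN-011 library lay within the Trex1-/- PBS range, and fitted with the term the difference of SN-011 from PBS was -0.017 (95% interval -0.44 to 0.40).

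C4a, the near-copy of C4b, was low in every library. It had 1.18, 1.08 and 0.926 CPM in WT, 0.974, 0.642 and 0.870 CPM in Trex1-/- PBS, and 1.47, 1.28 and 0.712 CPM in SN-011, and the groups overlapped. The difference of Trex1-/- PBS from WT was -0.36 (edgeR adjusted p 0.664). Of the 5230 windows of 150 bases in the longest C4b transcript, 432 (8.26%) are also in C4a, and reads that fit both were not counted.

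C2 (ENSMUSG00000024371; chromosome 17, 34862604 to 34898265) encodes the protease that joins C4 in the classical C3-splitting enzyme. It had 20.9, 21.4 and 19.8 CPM in WT, 23.0, 23.5 and 25.4 CPM in Trex1-/- PBS, and 11.3, 16.3 and 21.1 CPM in Trex1-/- SN-011. The Trex1-/- PBS libraries were above the others by a small margin, with a difference of 0.21 from WT (95% interval -0.18 to 0.61, edgeR adjusted p 0.621). Of its exonic bases 42.8% also belong to Gm20547, a read-through gene. All 3902 exonic bases of Gm20547 lie in exons of C2 or Cfb, and it was listed at 0 counts in 9 of 9 libraries, so reads were not counted for every gene they overlap, and C2 rests on the remaining bases.

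C3 (ENSMUSG00000024164; chromosome 17, 57203970 to 57228136), the protein on which the pathways meet, had 67.9, 55.1 and 79.4 CPM in WT, 116, 96.6 and 90.7 CPM in Trex1-/- PBS, and 70.2, 72.6 and 71.0 CPM in Trex1-/- SN-011. Trex1-/- PBS did not overlap the other groups, while the SN-011 libraries lay inside the WT range. The difference of Trex1-/- PBS from WT was 0.58 (SE 0.134, 95% interval 0.29 to 0.88) and missed the threshold (edgeR adjusted p 0.0614). With the Y-linked term it was 0.45 (adjusted p 0.235). Over 20 alternatives it ran from 0.39 to 0.71 and was called in 5 (adjusted p from 0.00497 to 0.235).

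Cfb (ENSMUSG00000090231; chromosome 17, 34856374 to 34862518), the catalytic part of the alternative pathway's C3-splitting enzyme, was the member whose WT and Trex1-/- PBS libraries overlapped. It had 8.68, 7.99 and 12.4 CPM in WT, 10.5, 14.7 and 10.2 CPM in Trex1-/- PBS, and 7.65, 10.9 and 8.01 CPM in Trex1-/- SN-011. The difference of Trex1-/- PBS from WT was 0.29 (edgeR adjusted p 0.578), which the Y-linked term took to -0.041 (adjusted p 0.961). Gm20547 covers 79.5% of its exonic bases, so its CPM rests on the remaining bases.

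Serping1 (ENSMUSG00000023224; chromosome 2, 84765387 to 84775444), the C1 inhibitor, had 114, 78.9 and 110.5 CPM in WT, 139, 124 and 119 CPM in Trex1-/- PBS, and 79.9, 91.9 and 67.0 CPM in Trex1-/- SN-011. Trex1-/- PBS stood above both other groups, and WT and SN-011 overlapped. The difference of Trex1-/- PBS from WT was 0.34 (SE 0.155, 95% interval -0.0065 to 0.68, edgeR adjusted p 0.336), which the Y-linked term took to 0.16 (adjusted p 0.769).

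C3ar1 (ENSMUSG00000040552; chromosome 6, 122847138 to 122856161), the C3a receptor of myeloid cells, was the least abundant member. It had 2.36, 1.85 and 2.31 CPM in WT, 4.99, 5.55 and 5.90 CPM in Trex1-/- PBS, and 3.46, 2.90 and 4.27 CPM in Trex1-/- SN-011. The 3 groups did not overlap, with SN-011 in the middle. The rise in Trex1-/- PBS over WT was 1.33 (SE 0.208, edgeR adjusted p 0.00819), or 2.52-fold, and fitting the Y-linked term gave 1.43 (adjusted p 0.0266). It rested on 40 to 50 counts per WT library and 82 to 95 counts per Trex1-/- PBS library.

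The number of calls in Trex1-/- PBS against WT depended on single libraries, for the members and for all genes alike. Leaving out SN-011 replicate 2, which is in the same fit but not in this comparison, took all genes called from 313 to 774. Of the 9 members, 0 were called without WT replicate 2 (0.954% of all genes in that fit, in either direction) and 1 without WT replicate 1 (0.942%). Without Trex1-/- PBS replicate 1 there was 1 (0.919%), without replicate 2 there were 2 (0.897%), and without replicate 3 there was 1 (1.27%). Without WT replicate 3 there were 6 (2.68%). That fit set WT libraries with Xist reads against Trex1-/- PBS libraries with Y-linked reads. Genotype and sex-linked reads cannot be told apart in it. The fold changes moved less: over 20 alternatives C3ar1 stayed between 1.23 and 1.45 and was called in 19, with a highest adjusted p of 0.0514, and C1qa stayed between 0.77 and 1.04 and was called in 15. C1qc stayed between 0.73 and 1.19 and was called in 14 (highest adjusted p 0.12), and C1qb between 0.54 and 0.92 and was called in 9 (highest adjusted p 0.202). C4b ran from 1.53 to 2.95 and was called in 15.

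**Figure D3:**
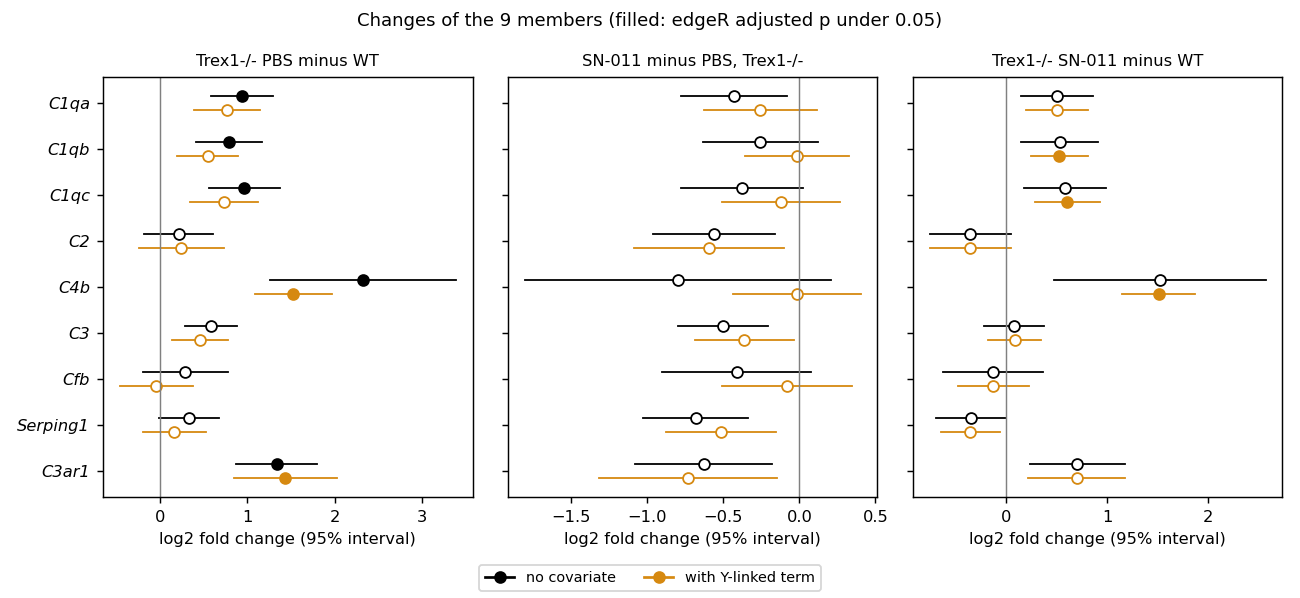
Log2 fold change (horizontal axis) of each member with its 95% interval in the 3 comparisons, without a covariate (black) and with the Y-linked term (orange); filled points have an edgeR adjusted p under 0.05. For C4b the interval narrows with the term in each panel, and the SN-011 against PBS panel has no filled point.

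Treatment of Trex1-/- mice with SN-011 was compared with PBS to ask which of these transcripts change when STING is blocked. All 9 members had lower fitted values with SN-011, with a median log2 difference of -0.50 against -0.0053 over all genes, and -0.26 with the Y-linked term. The 11 macrophage markers moved the same way, with 11 of 11 below 0, a median of -0.47 and 0 called, and with the term 8 of 11 below 0 and a median of -0.17. T and NK cell markers (0 of 7 tested above 0, median -0.66) and fibroblast and pericyte markers (1 of 6, median -0.32) were also lower. Podocyte markers were higher (4 of 4 above 0, median 0.28). With the term these 3 medians were -0.44, -0.17 and 0.17. The part of these cells in the members' differences was not tested. By edgeR's adjusted p, 0 of 9 members passed the threshold, as did 0% of all genes, and with the Y-linked term 0 of 9 and 0% of genes. At an unadjusted p under 0.05 there were 5 of 9 members (C1qa, C2, C3, Serping1 and C3ar1) against 11.4% of all genes. DESeq2's Wald test called 1 member (1.28% of all genes), edgeR's exact test 1 (0.763%) and limma-voom 0 (0%). For 6 of 9 members the SN-011 libraries all lay below the PBS libraries, against 8.41% of all genes. This comparison shares its PBS libraries with the one before.

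Serping1 had the smallest adjusted p among the members, with a difference of -0.68 (SE 0.155, 95% interval -1.02 to -0.33, edgeR adjusted p 0.215). Over 20 alternatives its adjusted p ran from 0.0116 to 0.65, and 4 of them called it. C3 differed by -0.50 (95% interval -0.80 to -0.21, edgeR adjusted p 0.25), C2 by -0.56 (95% interval -0.97 to -0.16, adjusted p 0.293) and C3ar1 by -0.63 (95% interval -1.08 to -0.18, adjusted p 0.293). With the Y-linked term the intervals of these 4 genes also stayed below 0, with Serping1 at -0.51, C3 at -0.36, C2 at -0.59 and C3ar1 at -0.73, and adjusted p from 0.347 to 0.454.

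The other 5 members had wider or smaller differences. C1qa differed by -0.43 (95% interval -0.78 to -0.081, edgeR adjusted p 0.347), C1qc by -0.38 (95% interval -0.78 to 0.025) and C1qb by -0.26 (95% interval -0.63 to 0.12). C4b differed by -0.80 (95% interval -1.81 to 0.21, edgeR adjusted p 0.532). Cfb differed by -0.41 (95% interval -0.90 to 0.077). The Y-linked term took C1qa to -0.26 (95% interval -0.63 to 0.11), C1qc to -0.12, C1qb to -0.014 and Cfb to -0.081. With SN-011 replicate 2 (Y-linked reads) left out, where 3.05% of all genes were called, C4b differed by -1.45 (edgeR adjusted p 0.0725) and Serping1 by -0.80 (adjusted p 0.0294). That fit set SN-011 libraries with Xist reads against Trex1-/- PBS libraries with Y-linked reads. Treatment and sex-linked reads cannot be told apart in it.

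SN-011-treated Trex1-/- kidneys were last set beside WT, to see which transcripts stood apart from WT under treatment. Without a covariate 0 of 9 members were called by edgeR, against 1.28% of all genes, and 5 of 9 had an unadjusted p under 0.05, against 18% of all genes. DESeq2's Wald test (5.22% of all genes) and limma-voom (1.08%) also called 0 members, and edgeR's exact test (3.61%) called 1. With the Y-linked term 3 of 9 were higher than WT, against 2.03% of all genes. They were C4b at 1.51 (SE 0.164, adjusted p 0.00153), C1qc at 0.61 (SE 0.144, adjusted p 0.0447) and C1qb at 0.53 (SE 0.128, adjusted p 0.0473), and C1qa at 0.51 had an adjusted p of 0.0662. C3ar1 was the 1 member whose SN-011 libraries all stood above WT, as for 11.8% of all genes, with a difference of 0.70 (edgeR adjusted p 0.131). C3 at 0.080, Cfb at -0.13, Serping1 at -0.34 and C2 at -0.35 had adjusted p of 0.279 to 0.811. Markers of other cells also stood apart in this comparison: Ly6c2 was higher than WT by 1.90 (edgeR adjusted p 0.0379), Plac8 by 1.09 (adjusted p 0.0479) and Jchain by 2.24 (adjusted p 0.0185). Fitted with the term these calls held, the neutrophil marker Csf3r was added (adjusted p 0.0447) and the proximal tubule marker Slc5a2 was lower by 0.50 on the log2 scale (adjusted p 0.0314), while 0 of 11 macrophage markers were called. Their part was not tested.

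The rest of the cascade was followed in a list of 56 complement genes by role, of which 40 passed the filter, the 9 members included. In Trex1-/- PBS against WT, 6 of 40 rose and 0 fell, against 1.44% of all genes that rose, and the 31 that are not members gave 1 of these 6. The median log2 fold change of those 31 was 0.048. The gene that rose was Itgb2, the beta chain of the complement receptors CR3 and CR4 and of other leukocyte integrins. It had 5.38, 5.42 and 7.17 CPM in WT, 14.1, 12.9 and 13.9 CPM in Trex1-/- PBS, and 6.86, 11.7 and 9.14 CPM in SN-011. It rose by 1.19 (edgeR adjusted p 0.0125), and by 0.87 with the Y-linked term (adjusted p 0.0421). In SN-011 against WT with the term, Itgb2 was higher by 0.61 (adjusted p 0.0424).

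By role, 4 of 9 tested classical pathway genes and 2 of 7 receptors rose in Trex1-/- PBS over WT, against 1.44% of all genes. Fitted with the Y-linked term, 1 of 9 and 2 of 7 did, against 0.907%. The counts were 0 of 4 in the lectin pathway, 0 of 4 in the alternative pathway with C3, 0 of 4 in the terminal pathway, 0 of 5 among soluble regulators and 0 of 7 among membrane regulators. In SN-011 against PBS, 0 of 40 listed genes were called, against 0% of all genes, and 11 had an unadjusted p under 0.05, against 11.4%. For the Y-linked term, 4 of 40 listed genes were called, against 3.65%. Beside C4b these were C7, a part of the membrane attack complex (0.95 higher with Y-linked reads, edgeR adjusted p 0.0333), Cd55, which speeds decay of the C3-splitting enzymes (0.72 higher, adjusted p 0.0314), and Cpn1, a carboxypeptidase that inactivates C3a (-0.68, adjusted p 0.0471).

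**Figure D4:**
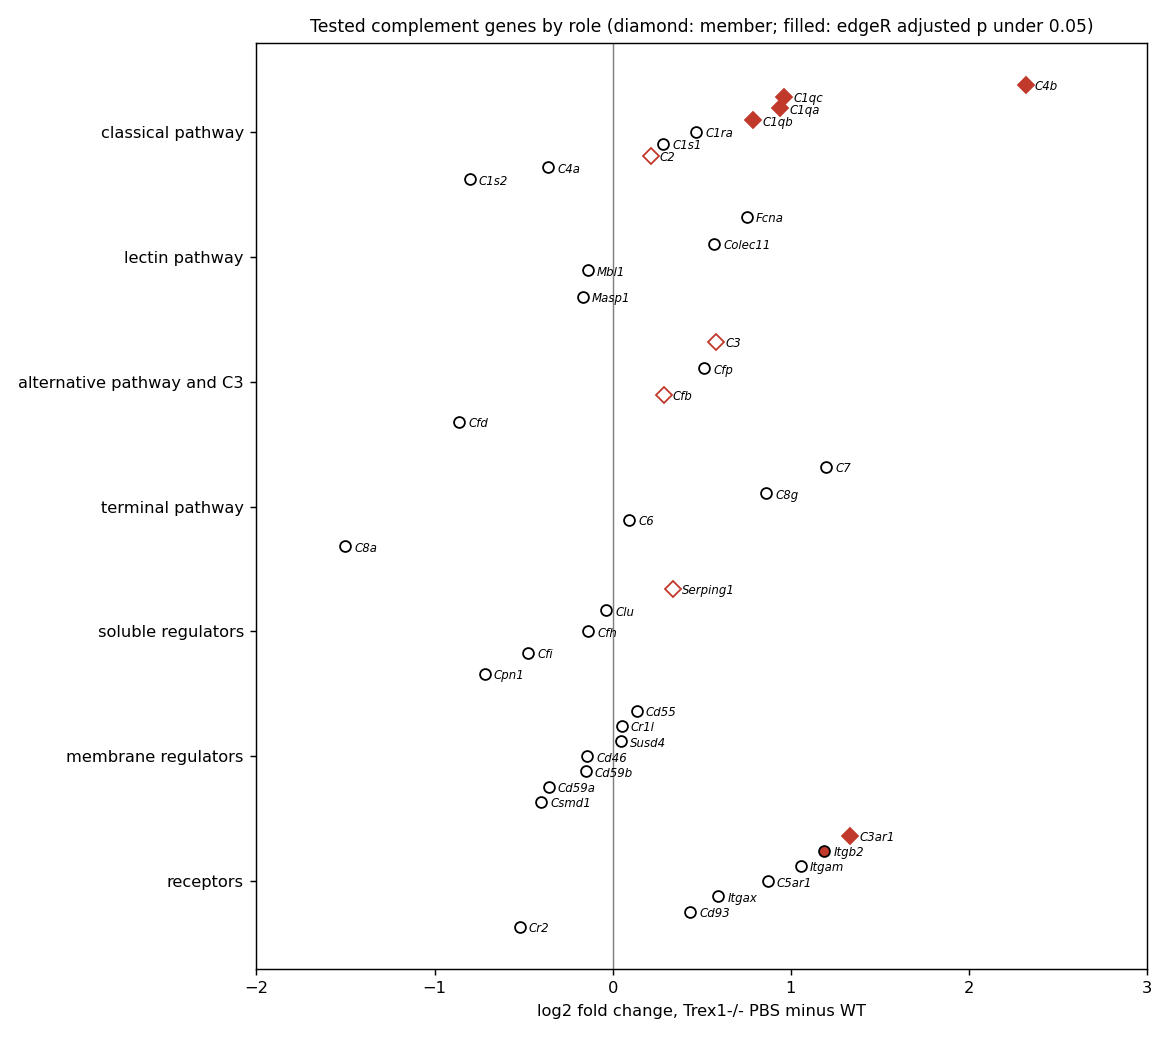
Log2 fold change of Trex1-/- PBS over WT (horizontal axis) for the 40 tested genes of the complement list, in rows by role; diamonds are the 9 members and filled symbols have an edgeR adjusted p under 0.05. The 6 filled symbols lie in the classical pathway and receptor rows.

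Markers of other cell types moved with these results. In Trex1-/- PBS over WT, 2 of 7 monocyte and neutrophil markers rose, Ly6c2 by 2.76 (edgeR adjusted p 0.00256) and Plac8 by 1.50 (adjusted p 0.00638), and the summed list ran from 16.0 to 30.8 CPM in WT, 56.3 to 59.0 CPM in Trex1-/- PBS and 31.8 to 52.3 CPM in SN-011. Of 7 tested T and NK cell markers 2 rose (Cd3g and Cd4, each with an edgeR adjusted p of 0.0329), and with the Y-linked term 0 did (adjusted p 0.155 for both), the sums running from 6.04 to 8.91 CPM in WT, 15.2 to 25.4 CPM in PBS and 6.80 to 16.8 CPM in SN-011. Of 4 tested B and plasma cell markers Jchain rose, with sums of 9.57 to 10.2 CPM, 20.1 to 25.0 CPM and 14.2 to 34.2 CPM. The 6 fibroblast and pericyte markers gave 0 calls, with sums of 189 to 300.1 CPM, 265 to 307 CPM and 182 to 241 CPM, and the 6 hepatocyte markers, of which 2 passed the filter, gave 0 calls with sums of 6.36 to 12.3 CPM in WT, 5.30 to 6.28 CPM in PBS and 5.44 to 6.26 CPM in SN-011, so that both Trex1-/- groups lay below WT. Among them Alb differed by -1.61 in Trex1-/- PBS against WT (edgeR adjusted p 0.122). Dendritic, podocyte, endothelial and adipocyte markers gave 0 calls in the 3 comparisons, with or without the Y-linked term. In Trex1-/- PBS the dendritic marker Cd209a lay below WT in all libraries (-3.12, edgeR adjusted p 0.0808), while 3 of 5 tested dendritic markers were above 0. The endothelial marker Tek also lay below WT (-0.33, adjusted p 0.0646), with 3 of 6 endothelial markers above 0. Dendritic sums were higher in SN-011 (20.2 to 21.1 CPM) than in WT (15.1 to 18.7 CPM) and PBS (15.6 to 18.7 CPM), and podocyte sums were higher in SN-011 (453 to 566 CPM) than in WT (405 to 446 CPM) and overlapped PBS (416 to 481 CPM). Endothelial sums (400.3 to 525 CPM) and adipocyte sums (15.6 to 102 CPM) overlapped between groups. Proximal tubule markers summed to 7927 to 9695 CPM over the 9 libraries, and 1 of 6 fell in Trex1-/- PBS (Slc5a2, by 0.71 on the log2 scale, adjusted p 0.0163), which the Y-linked term took to an adjusted p of 0.0701. Of 6 tubular injury markers 0 were called, while their sums were lower in Trex1-/- PBS (1095 to 1428 CPM) than in WT (1662 to 1993 CPM) and spanned both in SN-011 (968 to 1976 CPM). The list did not move one way: 3 of 6 fold changes were above 0, with a median of -0.078, and Vcam1 was higher in all Trex1-/- PBS libraries than in WT (0.78, edgeR adjusted p 0.126). With the term Havcr1 was called, at -2.16 (edgeR adjusted p 0.0204) against -1.04 (adjusted p 0.639) without it. The 6 distal nephron and collecting duct markers gave 0 calls with or without it, and their sums were 11010 to 12624 CPM in WT, 9839 to 10581 CPM in Trex1-/- PBS and 10229 to 11265 CPM in SN-011. The other marker calls held with the term (Ly6c2, Plac8, Jchain and Fcgr1, adjusted p from 0.00846 to 0.0465). The part of these cells in the complement values was not tested.

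Outside the complement list, 5 genes of 11564 with at least 5 CPM followed the members' mean profile most closely over the 9 libraries. Unc93b1, a carrier of nucleic acid-sensing Toll-like receptors, had a Pearson's r of 0.98, and Rac2, a GTPase of blood cells, 0.98. The interferon-induced gene Ifi27l2a had 0.97, Tmsb10, an actin-binding peptide, 0.97, and Fcer1g, the signalling chain of Fc receptors, 0.97. Ifi27l2a averaged 13.7 CPM in WT, 40.8 CPM in Trex1-/- PBS and 20.3 CPM in Trex1-/- SN-011. These are the highest of many correlations over libraries that share their groups.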

How the data were processed

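PolyA-selected kidney RNA was sequenced as read pairs in 9 libraries. The authors trimmed reads with Trimmomatic, aligned them with HISAT2 to mm10 and deposited raw counts of uniquely mapped pairs per gene from featureCounts; versions, annotation and strand setting are not given in the sources used here. Reads over exons shared by genes go uncounted at the default setting. Of 54532 identifiers, 54495 matched GENCODE vM21 (GRCm38). Counts were fitted in R 4.3.3 with edgeR 4.0.16: filterByExpr (minimum count 10, total 15), TMM scaling, all 9 libraries in 1 quasi-likelihood fit, and Benjamini-Hochberg adjustment over 16646 genes at 0.05. CPM use TMM factors, except those of sex-linked reads, taken over raw totals. A library carried Y-linked reads if Ddx3y, Kdm5d, Eif2s3y and Uty summed to over 10 CPM. The labels do not say that replicates are separate animals, and p-values measure the spread between libraries.

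Alternatives used DESeq2 1.42.0, limma 3.58.1, other filters, scalings, blocks and left-out libraries. Members, lists and tests were chosen with earlier results of these data known. Named genes were the members, other listed genes called in a comparison without or with the Y-linked term or for that term, C4a, and the 5 most alike in profile.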

Additional observations from a re-analysis of the deposited data

How the results depend on the processing

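Without a replicate, members called in Trex1-/- PBS against WT ran from 0 to 6 and listed complement genes from 0 to 11, those in SN-011 against PBS from 0 to 1 and 0 to 7, those in SN-011 against WT from 0 to 1 and 0 to 1, and members called for the Y-linked term from 1 to 2. The highest counts of SN-011 against PBS came without SN-011 replicate 2, where treatment and sex-linked reads cannot be told apart. The Y-linked term gave 2 members and 3 listed genes in Trex1-/- PBS against WT, and 3 and 4 in SN-011 against WT. DESeq2's Wald test and edgeR's exact test each called 1 member and 1 listed gene in SN-011 against PBS, and 9 listed genes in Trex1-/- PBS against WT; the exact test also called 1 and 1 in SN-011 against WT. With no filter beyond 1 read there were 10 listed genes in Trex1-/- PBS against WT, 1 member and 1 listed gene in each SN-011 comparison, and 2 members for the Y-linked term. Fitting only the 6 libraries of a comparison gave 10 listed genes in Trex1-/- PBS against WT. The cause was not tested in these cases.

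Deviations of same-numbered libraries from their group means correlated between -0.29 and 0.24, and those of other pairs between -0.37 and 0.38. Between Trex1-/- PBS and SN-011, same-numbered pairs had 0.20, 0.24 and 0.098, and other pairs ran from -0.22 to 0.091. Whether shared numbers mark a pairing was not tested. The replicate block gave 4 members in Trex1-/- PBS against WT, 0 in SN-011 against PBS and 0 in SN-011 against WT, where it called 1 listed gene; of all genes it called 312, 0 and 231. With block and Y-linked term these were 4, 0 and 5 members, 8 listed genes in SN-011 against WT, and 288, 41 and 1227 of all genes.

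Directions turned for values that had not been called. With the Y-linked term, Trex1-/- PBS against WT gave -0.041 for Cfb and -0.34 for Cd55, and Cd55 was 0.077 in SN-011 against PBS. With block and term these were -0.026, -0.32 and 0.053. Without a replicate, SN-011 against WT ran from -0.050 to 0.21 for C3, -0.31 to 0.082 for Cfb, -0.10 to 0.36 for C4a and -0.34 to 0.13 for Cpn1. The difference with Y-linked reads ran from -0.21 to 0.15 for C2, -0.41 to 0.13 for C3ar1 and -0.29 to 0.22 for C4a, and for C4a it was 0.0090 with limma-voom and 0.24 with the block. Without Lyz2 the C1q to macrophage ratio of Trex1-/- PBS against WT moved from 0.38 to 0.53, and that of SN-011 against WT from 0.36 to 0.43, with overlapping groups.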

Other observations

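C8a, a chain of the membrane attack complex, was singled out after its values were seen. It had 34.0, 31.7 and 17.4 CPM in WT, 6.88, 11.3 and 11.3 CPM in Trex1-/- PBS, and 0.680, 20.7 and 0.178 CPM in SN-011, where replicates 1 and 3 rested on 12 and 3 counts against 357 in replicate 2. Trex1-/- PBS did not overlap WT, with a difference of -1.50 (edgeR adjusted p 0.498), which the Y-linked term took to -3.08 (95% interval -5.65 to -0.51, adjusted p 0.341). The term fits the same shift in every group. For C8a the library with Y-linked reads was the lowest in WT but the highest in SN-011, so the same shift did not describe both groups. The SN-011 libraries lay below and above those of Trex1-/- PBS.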
